A study of Mus musculus with 5 samples.

Results

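The genes described here are CDK inhibitors and G1 cyclins, the proteins that set whether a cell leaves G1 and begins DNA synthesis. All 10 were chosen by symbol: the INK4 inhibitors CDKN2A, CDKN2B, CDKN2C and CDKN2D, the KIP inhibitor CDKN1B, the D cyclins CCND1, CCND2 and CCND3, and the E cyclins CCNE1 and CCNE2. They are 10 genes beside 13979 symbols that 3 of the deposited tables share, and 9 of the 10 were listed for all 5 libraries. The libraries are labelled as the mouse Lewis lung carcinoma line LLC, in 5 groups with 1 library per group. The groups were Control, PAZA (a polymer micelle that carries azacytidine, an inhibitor of DNA methyltransferases), BMN (BMN673, an inhibitor of PARP), BMN/PAZA low dose and BMN/PAZA high dose, in which BMN is loaded into PAZA. The sample labels describe LLC cells kept in culture and treated for 72 h, whereas the study's methods describe LLC tumors taken from mice after the last treatment. LLC is 1 cell line, saline is what the study's methods give to control mice, and whether several tumors were pooled into a library is not stated in the sources used here. Since no group has a second library, no test was possible, and every interval below covers counting error alone.

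D cyclins bind CDK4 and CDK6, and E cyclins bind CDK2. These kinases phosphorylate RB1 and its relatives, which releases E2F factors and turns on genes for DNA replication. INK4 proteins bind CDK4 and CDK6 and keep D cyclins from activating them, whereas the KIP protein p27, encoded by CDKN1B, binds cyclin and CDK complexes and blocks CDK2 above all. The CDKN2A gene has separate starts for p16Ink4a and for p19Arf, an activator of the p53 pathway, and it lies next to CDKN2B. This locus is often deleted in tumors or silenced by methylation of its promoter DNA.

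Promoter windows of 300 bases, which run from upstream of an annotated start to just past it, were taken from RefSeq on GRCm38.p6. Of the 10 genes, 7 had at least 1 window, with 10 windows in all, and none was found for CCND1, CCND2 and CCNE2. Those of 5 starts are shown because the carrier inhibits the enzymes that methylate cytosine in CG pairs, and because these genes were either at the limit of detection or called between libraries. DNA methylation itself was not measured in these data. Capitals mark each CG pair. The windows lie at chr4:89294570-89294869 and chr4:89282143-89282442 for the p19Arf and p16Ink4a starts of CDKN2A, chr4:89310983-89311282 for CDKN2B, chr4:109666707-109667006 for CDKN2C and chr7:38107441-38107740 for CCNE1, and each is printed on the minus strand, 5′ to 3′.
CDKN2A, p19Arf start: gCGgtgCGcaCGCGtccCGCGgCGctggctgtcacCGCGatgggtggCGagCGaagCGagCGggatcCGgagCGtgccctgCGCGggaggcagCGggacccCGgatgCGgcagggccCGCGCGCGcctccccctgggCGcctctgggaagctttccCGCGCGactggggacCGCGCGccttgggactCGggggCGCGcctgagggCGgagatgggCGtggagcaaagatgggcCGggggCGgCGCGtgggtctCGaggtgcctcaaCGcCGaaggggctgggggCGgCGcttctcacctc
CDKN2A, p16Ink4a start: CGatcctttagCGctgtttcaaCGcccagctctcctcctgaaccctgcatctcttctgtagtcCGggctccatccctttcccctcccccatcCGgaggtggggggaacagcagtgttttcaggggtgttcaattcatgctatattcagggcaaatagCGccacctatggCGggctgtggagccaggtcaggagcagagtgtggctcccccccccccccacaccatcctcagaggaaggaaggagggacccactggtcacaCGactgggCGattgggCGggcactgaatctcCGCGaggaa
CDKN2B: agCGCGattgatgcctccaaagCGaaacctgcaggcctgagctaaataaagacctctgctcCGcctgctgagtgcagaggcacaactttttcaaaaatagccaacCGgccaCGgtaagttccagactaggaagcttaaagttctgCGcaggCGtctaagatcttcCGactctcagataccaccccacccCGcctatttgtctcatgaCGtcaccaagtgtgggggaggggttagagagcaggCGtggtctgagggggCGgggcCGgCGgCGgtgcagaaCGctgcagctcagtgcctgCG
CDKN2C: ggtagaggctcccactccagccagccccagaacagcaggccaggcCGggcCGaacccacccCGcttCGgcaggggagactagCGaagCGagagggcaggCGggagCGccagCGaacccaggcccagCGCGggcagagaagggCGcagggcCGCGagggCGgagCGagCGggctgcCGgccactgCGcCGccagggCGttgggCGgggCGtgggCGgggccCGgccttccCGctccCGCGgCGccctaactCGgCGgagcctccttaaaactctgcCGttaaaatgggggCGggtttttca
CCNE1: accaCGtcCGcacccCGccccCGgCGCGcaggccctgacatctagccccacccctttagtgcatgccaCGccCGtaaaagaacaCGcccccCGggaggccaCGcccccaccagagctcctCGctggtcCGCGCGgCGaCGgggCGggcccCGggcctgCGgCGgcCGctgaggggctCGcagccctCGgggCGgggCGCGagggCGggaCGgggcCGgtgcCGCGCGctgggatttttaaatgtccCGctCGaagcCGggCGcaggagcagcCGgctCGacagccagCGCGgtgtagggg

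The p19Arf window of CDKN2A held 45 CG pairs, a number that 1.93% of 32851 promoter windows reached, and the window of CCNE1 held 41, which 3.46% reached. The p16Ink4a window of CDKN2A was poorer, with 12 CG pairs. CDKN2B had 18 CG pairs, and the printed window of CDKN2C had 33, whereas a second window of CDKN2C had 8. Of the windows not printed, CDKN1B held 30 CG pairs, CDKN2D 22, and the windows of CCND3 15 and 28. The median over the 10 windows was 25 CG pairs, against 7 over all promoter windows. The letters TTTCGCGC, TTTGGCGC and TTTCCCGC, forms of the E2F motif that differ in the middle letters, were searched on both strands, and the same letters can match only 1 of them on a strand. They were present in 0.323%, 0.514% and 1.07% of all windows, with 1.84% holding any of them. Among the 10 windows of these genes, 1 held such a motif, TTTCCCGC in the p19Arf window of CDKN2A.

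Values are scaled FPKM, fragments per kilobase of gene after each library was rescaled to the same total of 1000000 over the shared symbols. Control and PAZA come from 1 table, BMN and BMN/PAZA low dose from another, and BMN/PAZA high dose from the third, and since the authors scaled the tables separately, levels across them rest on this rescaling. The number of fragments behind a value was recovered from the steps between low values, as 95.7% to 97.4% of low values of genes with a single transcript were whole multiples of a unit within 0.03. The units would correspond to between 6.45 and 9.09 times 1000000 fragments in a library, if the deposited values were scaled per 1000000 fragments. Genes with 3 fragments or fewer in both libraries were given no fold. A gene is called higher or lower between libraries where log2(scaled FPKM + 1) differed by at least 1, a scale that understates differences of weakly expressed genes. Values of the 10 genes for the same library in different tables stood in a fixed ratio, with 0 of them off it by over 0.5%. For BMN and BMN/PAZA high dose the ratio was 1 and the same values stood in both tables, so the check says little there. Control is in 1 table only, and its values could not be checked in this way.

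The levels fell into 3 tiers. CDKN2A and CDKN2B were at or near 0 in every library that lists them. CDKN2C, CDKN2D, CCND2 and CCND3 lay between 2.67 and 17.1 scaled FPKM, and CDKN1B, CCND1, CCNE1 and CCNE2 between 20.3 and 189. CCNE2 was the highest of the 10 genes in each of the 5 libraries, with more scaled FPKM than at least 94.96% of the shared genes.

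**Figure D1:**
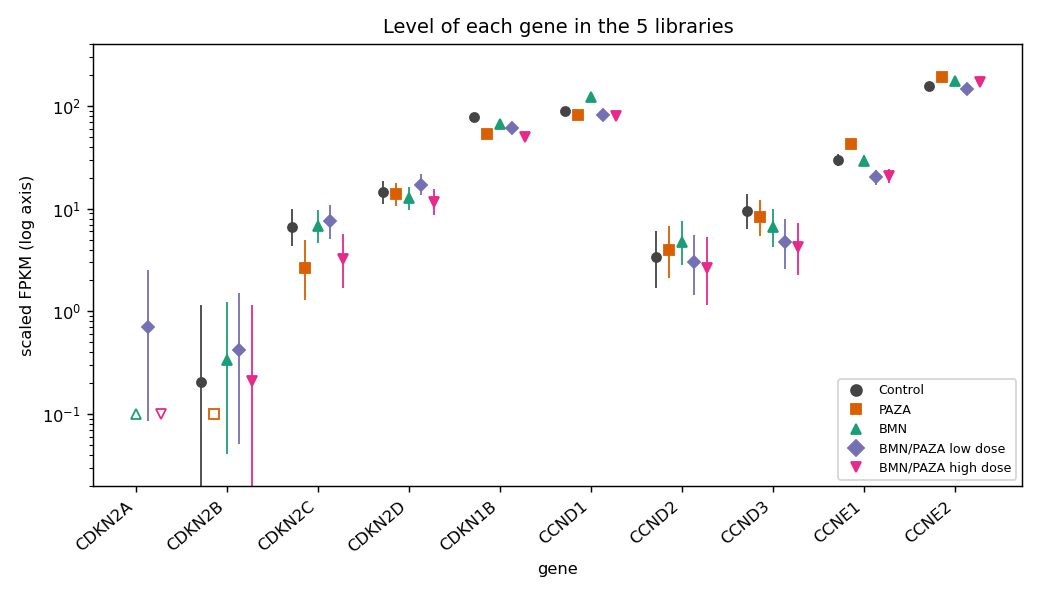
Scaled FPKM (log axis) of the 10 genes in the 5 libraries, with 1 point per library and vertical bars for the 95% exact Poisson interval of the fragments behind each value, based on the shortest coding transcript. Open symbols are libraries listed at 0, drawn at an arbitrary height. CDKN2A and CDKN2B stand at the floor, and CCNE2 is the highest gene throughout, between 146 and 189.

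CDKN2A (ENSMUSG00000044303.6, chromosome 4 of GRCm38, 89274471 to 89294653, minus strand) was listed at 0 in BMN and in BMN/PAZA high dose. BMN/PAZA low dose had 0.704 scaled FPKM, which corresponds to 2 fragments. The table of Control and PAZA does not list the gene, and that table holds 0 rows with 0 in both libraries. In its table with BMN/PAZA low dose, PAZA was listed at 0. A library at 0 allows up to 3 fragments, or 0.917 scaled FPKM in BMN and 1.12 in BMN/PAZA high dose. The single library with a value thus lay under the limits of the libraries without one, so a difference between libraries was not detectable at this depth. The values are for the whole gene, and the p16Ink4a and p19Arf transcripts were not told apart.

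CDKN2B (ENSMUSG00000073802.5, 89306299 to 89311039, minus strand), which encodes p15Ink4b, had 0.208 scaled FPKM in Control, 0 in PAZA, 0.340 in BMN, 0.420 in BMN/PAZA low dose and 0.209 in BMN/PAZA high dose. These values correspond to 1, 0, 2, 2 and 1 fragments. All 5 libraries were at or under 3 fragments, and their order cannot be read.

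The neighbours of the pair on chromosome 4 were not uniformly low. MTAP, an enzyme of methionine salvage that ends 93.4 kb before CDKN2A begins, had 84.4 scaled FPKM in Control, 64.8 in PAZA, 71.4 in BMN, 56.0 in BMN/PAZA low dose and 62.5 in BMN/PAZA high dose. MLLT3, further along on the same side, had 81.5, 49.7, 76.9, 49.9 and 39.6 scaled FPKM in the same order, and BMN/PAZA high dose was called lower than Control with a log2 difference of -1.02, where 4.95% of all genes were. With scaling by median ratio MLLT3 was no longer called, at -0.77. On the other side DMRTA1 had at most 0.126 scaled FPKM. Copy number was not measured, so low transcription and loss of the gene cannot be told apart.

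**Figure D2:**
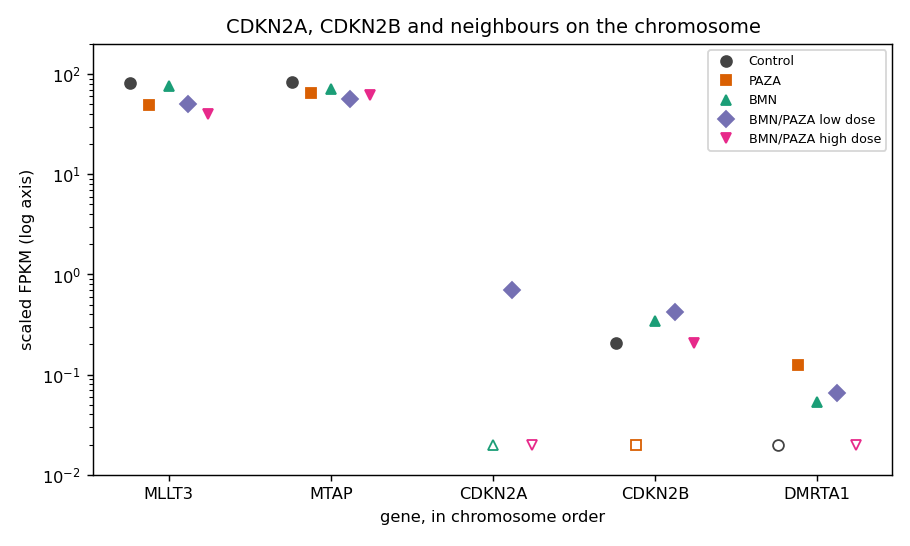
Scaled FPKM (log axis) of CDKN2A, CDKN2B and 3 neighbours in chromosome order, with 1 point per library and no error bars. Open symbols are libraries listed at 0, drawn at an arbitrary height. MLLT3 and MTAP lie between 39.6 and 84.4, and CDKN2A, CDKN2B and DMRTA1 lie under 1 in every library that lists them.

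CDKN2C (ENSMUSG00000028551.14, chromosome 4, 109660876 to 109667189, minus strand) encodes p18Ink4c. It had 6.69 scaled FPKM in Control, 2.67 in PAZA, 6.79 in BMN, 7.59 in BMN/PAZA low dose and 3.27 in BMN/PAZA high dose. The libraries formed a higher set of Control, BMN and BMN/PAZA low dose, and a lower set of PAZA and BMN/PAZA high dose. Within each set the 95% counting intervals overlapped widely, and across the sets those of PAZA and BMN/PAZA low dose were the only pair that did not overlap. The PAZA value rested on 10 to 25 fragments and the Control value on 24 to 60, depending on whether the shortest or the longest coding transcript is taken. The interval of PAZA ran from 1.28 to 4.90, that of BMN/PAZA high dose from 1.69 to 5.71, that of Control from 4.29 to 9.96 and that of BMN/PAZA low dose from 5.04 to 10.97.

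CDKN2D (ENSMUSG00000096472.2, chromosome 9, 21288410 to 21291407, minus strand) encodes p19Ink4d and was the most abundant INK4 gene in every library. It had 14.6 scaled FPKM in Control, 13.9 in PAZA, 12.7 in BMN, 17.1 in BMN/PAZA low dose and 11.6 in BMN/PAZA high dose. The highest library was 1.47 times the lowest, and the counting intervals of all 5 libraries overlapped. CDKN2D made up 64.0% to 83.9% of the summed INK4 level, with the highest share in PAZA, where CDKN2C was lowest. CDKN2A is not in the sum for Control and PAZA.

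CDKN1B (ENSMUSG00000003031.14, chromosome 6, 134920401 to 134925513, plus strand) stood above all INK4 genes. It had 78.4 scaled FPKM in Control, 53.2 in PAZA, 66.1 in BMN, 60.4 in BMN/PAZA low dose and 50.2 in BMN/PAZA high dose. Control was the highest library, and all 4 treated libraries lay below it. BMN/PAZA high dose, at 44.8 to 56.2, overlapped PAZA, at 47.7 to 59.2, and neither reached the interval of Control, from 71.6 to 85.7. The ratio of CDKN1B to the summed INK4 level was 3.65 in Control, 3.21 in PAZA, 3.34 in BMN, 2.34 in BMN/PAZA low dose and 3.33 in BMN/PAZA high dose.

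CCND1 (ENSMUSG00000070348.5, chromosome 7, 144929931 to 144939925, minus strand) had 89.6 scaled FPKM in Control, 81.0 in PAZA, 121 in BMN, 81.1 in BMN/PAZA low dose and 79.5 in BMN/PAZA high dose. BMN stood apart from the other 4 libraries, with an interval of 116 to 126 where the next highest, Control, ended at 94.7. PAZA, BMN/PAZA low dose and BMN/PAZA high dose could not be told apart by their intervals. CCND1 shares exonic sequence with LTO1 on the opposite strand, and whether fragments were counted by strand is not stated in the sources used here.

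CCND2 (ENSMUSG00000000184.12, chromosome 6, 127125162 to 127152193, minus strand) had 3.35 scaled FPKM in Control, 3.95 in PAZA, 4.74 in BMN, 3.004 in BMN/PAZA low dose and 2.67 in BMN/PAZA high dose. All 5 intervals overlapped on the shortest transcript, with 8 to 18 fragments. The longest transcript would give 63 to 138 fragments. On it, the ratio interval left out 1 for BMN against Control (1.07 to 1.89). The same held against BMN for BMN/PAZA low dose (0.469 to 0.849) and BMN/PAZA high dose (0.411 to 0.763). CCND2 also overlaps antisense genes on the plus strand. CCND3 (ENSMUSG00000034165.16, chromosome 17, 47505051 to 47599691, plus strand) had 9.52 scaled FPKM in Control, 8.34 in PAZA, 6.63 in BMN, 4.69 in BMN/PAZA low dose and 4.28 in BMN/PAZA high dose. Both combination libraries lay below the 3 others, with intervals that overlapped those of their neighbours. CCND3 overlaps BYSL on the opposite strand and shares 881 bases at 96.3% identity with the pseudogene Ccnd3-ps, so its value is uncertain beyond counting error. The 8 T cell markers (CD3 subunits and other genes of T cells) summed to 21.2 scaled FPKM in Control, 25.6 in PAZA, 12.4 in BMN, 7.90 in BMN/PAZA low dose and 3.16 in BMN/PAZA high dose, and their part in the CCND3 values was not tested.

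CCND1 made up 86.8% to 92.0% of the summed D cyclin level. The sum was 102.5 scaled FPKM in Control, 93.3 in PAZA, 132 in BMN, 88.8 in BMN/PAZA low dose and 86.4 in BMN/PAZA high dose. BMN was thus the highest library of the sum, as it was of CCND1.

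CCNE1 (ENSMUSG00000002068.16, chromosome 7, 38097984 to 38107534, minus strand) had 30.0 scaled FPKM in Control, 42.7 in PAZA, 29.3 in BMN, 20.3 in BMN/PAZA low dose and 20.9 in BMN/PAZA high dose. The libraries fell into 3 steps whose intervals did not overlap. PAZA was highest at 38.1 to 47.7, Control and BMN were in the middle at 25.8 to 34.2, and both combination libraries were lowest at 17.1 to 24.5. Within the middle and the lowest step the libraries could not be told apart. With scaling by median ratio the lowest step did not hold for BMN/PAZA high dose, whose ratio was 0.834 (0.672 to 1.03) to Control and 0.909 (0.738 to 1.12) to BMN.

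CCNE2 (ENSMUSG00000028212.16, chromosome 4, 11191351 to 11204779, plus strand) had 156 scaled FPKM in Control, 189 in PAZA, 174 in BMN, 146 in BMN/PAZA low dose and 172 in BMN/PAZA high dose. The highest library was 1.30 times the lowest. PAZA was highest in this scaling, but with scaling by median ratio PAZA and BMN/PAZA high dose both stood at 1.32 times Control. The interval of BMN/PAZA low dose, from 139 to 153, overlapped that of Control alone. CCNE2 overlaps INTS8 on the opposite strand. Of the summed E cyclin level CCNE2 made up 81.6% to 89.2%, and it stood at 5.20 times CCNE1 in Control, 4.43 in PAZA, 5.95 in BMN, 7.20 in BMN/PAZA low dose and 8.23 in BMN/PAZA high dose.

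**Figure D3:**
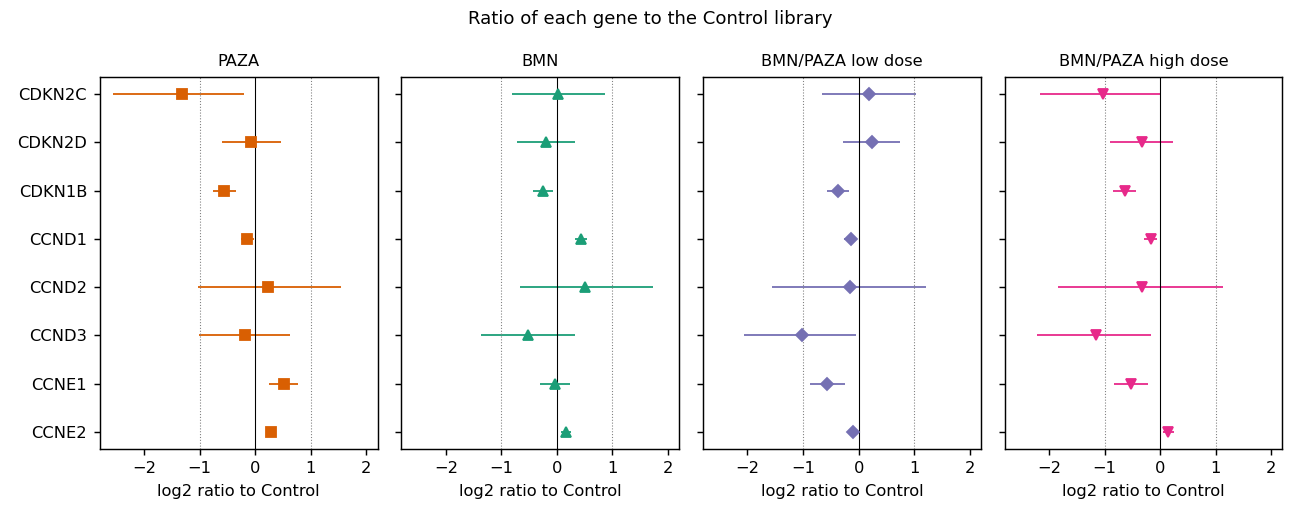
Log2 ratio of each of 8 genes to Control in the 4 treated libraries, from scaled FPKM without a pseudocount, with horizontal bars for the 95% exact counting interval and dotted lines at 2-fold. CDKN2A and CDKN2B are left out, with 3 fragments or fewer. CDKN1B lies to the left in all 4 panels, CCND1 to the right in BMN, and CCNE1 to the right in PAZA and to the left in both combination libraries.

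PAZA was compared with Control to ask what the carrier alone does. Of the 9 members listed for both libraries, only CDKN2C was called. It was lower in PAZA with a log2 difference of -1.07 and a ratio of 0.398 (95% exact counting interval 0.170 to 0.864). It was no longer called with scaling by median ratio, at -0.98, or as deposited, at -0.88. Cyclin E messages were higher in PAZA, CCNE1 by 1.42 times (1.19 to 1.70) and CCNE2 by 1.21 times (1.14 to 1.29). CDKN1B was lower, at 0.679 of Control (0.589 to 0.781). CCND1, at 0.904 (0.834 to 0.980), had an interval that reached 1 with scaling by median ratio. Across 13979 genes, 3.47% were called higher and 3.53% lower, or 4.46% and 2.78% with scaling by median ratio, and the 1 gene called has to be read against that background. The median log2 difference was -0.14 over the 9 listed members and -0.07 over all genes.

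BMN was compared with Control to ask what the PARP inhibitor alone does. None of the 9 members listed for Control was called, against a background of 4.66% called higher and 2.25% lower. CCND1 was higher by 1.35 times (1.26 to 1.45) and CDKN1B was at 0.842 of Control (0.742 to 0.956). CCNE1 had a ratio of 0.979 (0.813 to 1.18) and CDKN2C 1.01 (0.574 to 1.81). CCNE2 had a ratio of 1.12 (1.05 to 1.19), but with scaling by median ratio it had 1.05 and an interval that included 1. The 6 fibroblast markers summed to 817 scaled FPKM in BMN and 313 in Control, and their part in the CCND1 value was not tested. The members' median was 0.02, and that of all genes was 0.09.

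BMN/PAZA low dose was set against Control to ask what the combination does at the lower dose. None of the 9 members listed for Control was called. The background was 3.87% higher and 3.71% lower, or 4.98% and 2.97% with scaling by median ratio. CCNE1 was at 0.676 of Control (0.543 to 0.839) and CDKN1B at 0.771 (0.671 to 0.884). CCND3 was at 0.492 (0.239 to 0.967), and was not called on the log2(value + 1) scale, with a difference of -0.89. Its interval included 1 with scaling by median ratio. CCNE2 had a ratio of 0.936 (0.873 to 1.004), and its direction turned with that scaling. CDKN2C, which was lower in PAZA alone, had a ratio of 1.13 (0.634 to 2.04) here. The members' median log2 difference was -0.12, and that of all genes was -0.04.

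BMN/PAZA high dose against Control gave no call among the 9 members listed for Control, where 3.2% of all genes were called higher and 4.95% lower. With scaling by median ratio the background was 5.01% higher and 2.98% lower, and the median of all genes moved by 0.19. CDKN1B was at 0.641 of Control (0.554 to 0.741) and lay -0.46 from the all-gene median on the log2 scale. CCND3 was at 0.449 (0.214 to 0.896), with an interval that included 1 after scaling by median ratio, and CDKN2C was at 0.488 (0.222 to 1.01). CCNE1, at 0.697 (0.561 to 0.863), was at 0.834 with an interval that included 1 after scaling by median ratio. CCNE2 was at 1.10 (1.03 to 1.18), while CCND1 was at 0.887 and turned to 1.06 with that scaling. The members' median was -0.30, and that of all genes was -0.17.

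The next comparisons ask, at the low dose, what PAZA adds to BMN and what BMN adds to PAZA. BMN/PAZA low dose against BMN gave no call among the 10 genes, against a background of 3.37% higher and 5.42% lower, or 5.17% and 3.56% with scaling by median ratio. CCND1 was at 0.670 of BMN (0.623 to 0.722), and CCNE1 was at 0.691 (0.559 to 0.851). These genes lay -0.43 and -0.37 from the all-gene median of -0.14. CCNE2, at 0.835 (0.783 to 0.892), was at 0.965 with an interval that included 1 after scaling by median ratio. CDKN2D had a ratio of 1.35 (0.956 to 1.92), and with scaling by median ratio it had 1.56 and an interval above 1 (1.10 to 2.21). The members' median log2 difference was -0.19.

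BMN/PAZA low dose against PAZA called 1 gene in each direction. CDKN2C was higher in the combination by 2.85 times (1.34 to 6.57), a log2 difference of 1.23. CCNE1 was lower, at 0.475 of PAZA (0.387 to 0.580), with a log2 difference of -1.04. Without RN7SK and MT-RNR2 in the sum, CCNE1 was no longer called, at -0.99. Both genes kept the direction within the table that holds both libraries. CCNE2 was also lower, at 0.772 (0.722 to 0.825), and CCND1 had a ratio of 1.002 (0.922 to 1.09). The background was 2.93% called higher and 2.91% lower, and the median log2 difference was 0.00 over the members and 0.02 over all genes. CDKN2C in PAZA had 10 to 25 fragments, so the size of its ratio is loosely set.

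BMN/PAZA high dose against BMN gave no call, where 2.33% of all genes were called higher and 6.89% lower. The paper names BMN alone at the same dose as BMN/PAZA low dose. The dose of BMN therefore differs here as well as the carrier, and their parts cannot be told apart. With median ratio scaling the background was 4.44% higher and 3.25% lower, and the all-gene median moved by 0.27. CCND1 was at 0.657 of BMN (0.610 to 0.707), and at 0.839 with the other scaling, where its interval still ended below 1. CDKN2C, at 0.481 (0.224 to 0.967), had the largest fold, and its interval included 1 with the other scaling. CCNE1, at 0.712, and CDKN1B, at 0.761, also had intervals that included 1 with the other scaling. CCNE2 turned from 0.985 (0.925 to 1.05) to 1.26. The members' median was -0.47, and that of all genes was -0.27.

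BMN/PAZA high dose was set against BMN/PAZA low dose to compare the doses. The sample labels attach the dose to BMN alone, whereas the paper changed the doses of BMN and azacytidine together. CDKN2C was called lower at the high dose, with a log2 difference of -1.01 and a ratio of 0.430 (0.199 to 0.874). It was no longer called with scaling by median ratio or without the 100 highest genes in the sum, at -0.91 in both. CCNE2 was higher by 1.18 times (1.10 to 1.26), and CCNE1 had a ratio of 1.03 (0.814 to 1.31). CCND1 had a ratio of 0.980 (0.900 to 1.07), and its direction turned with scaling by median ratio, as did that of CCND3. CDKN2D, at 0.678 (0.462 to 0.987), and CDKN1B, at 0.831 (0.712 to 0.970), had intervals that included 1 with that scaling. Of all genes 2.52% were called higher and 4.13% lower, or 3.36% each way with median ratio scaling. The members' median was -0.18, and that of all genes was -0.12.

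Over the 8 comparisons there were 64 ratios with more than 3 fragments in at least 1 library, and 31 had a counting interval that left out 1. Of these, 18 still did under each of 3 other scalings. They were CDKN1B below Control in all 4 treated libraries, CCNE1 and CCNE2 above Control and CDKN2C below it in PAZA, CCND1 above Control in BMN and below BMN in both combinations, CCNE1 below Control, BMN and PAZA in BMN/PAZA low dose, CDKN2C above and CCNE2 below PAZA in the same library, and, for BMN/PAZA high dose, CCNE2 above Control and above the low dose and CDKN2C below the low dose. The comparisons share libraries and are not independent of each other. Spread between tumors or cultures was not measured and is not in any interval. With the longest instead of the shortest coding transcript, 8 of the 64 ratios, of CCND2, CCND3, CDKN1B and CDKN2C, gained an interval that left out 1.

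Genes that act beside these proteins were taken from lists chosen with earlier results of these data known, and each is described against Control, where the median of all genes was -0.07 in PAZA, 0.09 in BMN, -0.04 in BMN/PAZA low dose and -0.17 in BMN/PAZA high dose. The calls in each list have to be read against the shares of all genes called in the same comparison, which were 3.47% higher and 3.53% lower in PAZA, 4.66% and 2.25% in BMN, 3.87% and 3.71% in BMN/PAZA low dose, and 3.2% and 4.95% in BMN/PAZA high dose. With at most 3 calls in lists of 4 to 20 genes, nothing is read from the counts. Among 9 measured G1 kinases and activators, CDK2, the partner of E cyclins, was called higher in BMN, with 4.43 scaled FPKM in Control and 10.6 in BMN, and no gene was called in the 3 other comparisons. The list's median was 0.04 in PAZA, 0.13 in BMN, 0.21 in BMN/PAZA low dose and -0.13 in BMN/PAZA high dose. Among the 4 other CDK inhibitors, CDKN1C, which encodes the KIP protein p57, was called higher in PAZA with a log2 difference of 2.36, and no other call was made. It had 0.779 scaled FPKM in Control, 8.12 in PAZA, 0.555 in BMN, 0.597 in BMN/PAZA low dose and 1.49 in BMN/PAZA high dose, so PAZA was the high library. CDKN1A, the p53 target p21, stood off the fixed ratio between tables in a library other than BMN, and no difference is given for it. The median of these 4 genes, CDKN1A included, was 0.49 in PAZA, 0.80 in BMN, 0.39 in BMN/PAZA low dose and 0.06 in BMN/PAZA high dose.

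Of 13 pocket proteins and E2F factors, RBL2, the RB relative p130, was called lower in PAZA, with 33.1 scaled FPKM in Control and 13.7 in PAZA. E2F7, a repressor of E2F targets, was called higher in BMN, with 8.79 and 19.0 scaled FPKM, but not with scaling by median ratio, where it stood at 0.94. These are 1 of 13 genes in each case, where 3.53% of all genes were called lower in PAZA and 4.66% higher in BMN. No gene of this list was called in either combination, and the list's median was -0.07 in PAZA, 0.35 in BMN, -0.03 in BMN/PAZA low dose and -0.31 in BMN/PAZA high dose. Of 12 genes for the turnover of p27 and cyclins, FBXO4, an F-box protein, was called higher in PAZA and in BMN, with log2 differences of 1.13 and 1.01, and with scaling by median ratio only the call in PAZA held, as BMN stood at 0.92. RNF123, the ubiquitin ligase of p27 in the cytoplasm, was called lower in BMN with -1.51. USP2, a deubiquitinase, was called higher in BMN/PAZA high dose with 1.09. The background was 3.47% higher in PAZA, 4.66% higher and 2.25% lower in BMN, and 3.2% higher in BMN/PAZA high dose. RBX1 was also called higher in BMN. It stood off the fixed ratio between tables in a library other than BMN, and its Control value could not be checked. The median of this list, RBX1 included, was -0.11 in PAZA, 0.02 in BMN, 0.17 in BMN/PAZA low dose and -0.24 in BMN/PAZA high dose.

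The list of Polycomb proteins and demethylases of the INK4 locus held 20 genes, which write, bind or remove histone marks of Polycomb silencing, a known repressor of CDKN2A and CDKN2B. EZH1, a methyltransferase, was called lower in PAZA with a log2 difference of -1.33, and KDM6B, a demethylase of the mark that EZH1 writes, with -1.19. PCGF2, a Polycomb subunit, was called higher in BMN/PAZA high dose with 1.02. The shares of all genes were 3.53% called lower in PAZA and 3.2% called higher in BMN/PAZA high dose. The list's median log2 difference was -0.35 in PAZA, -0.01 in BMN, -0.27 in BMN/PAZA low dose and -0.37 in BMN/PAZA high dose. Of 20 proliferation genes, TYMS was called higher in BMN. TYMS and PCNA stood off the fixed ratio in a library other than BMN, and their Control values could not be checked. The median of that list, TYMS and PCNA included, was 0.06 in PAZA, 0.23 in BMN, -0.03 in BMN/PAZA low dose and -0.26 in BMN/PAZA high dose.

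**Figure D4:**
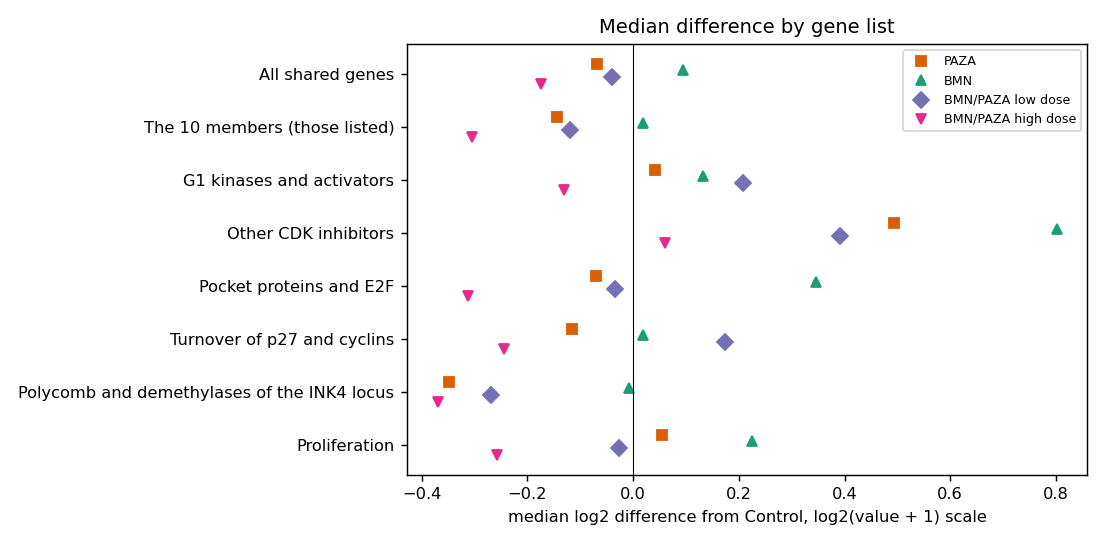
Median log2 difference from Control, on the log2(scaled FPKM + 1) scale, of the 9 of the 10 genes that are listed for Control and of each list of related genes in the 4 treated libraries, with 1 point per library and no error bars. The median of all shared genes was -0.17 in BMN/PAZA high dose and 0.09 in BMN, and the point for other CDK inhibitors rests on 4 genes, including CDKN1A.

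Likeness of profile was described by the largest gap between log2 differences from Control over the 4 treated libraries, among 79 genes of the lists. The nearest gene was E2F4 for CDKN2C (largest gap 0.52), CDK4 for CDKN2D (0.11) and BMI1 for CDKN1B (0.20). Among cyclins it was E2F3 for CCND1 (0.16), CCNA2 for CCND2 (0.11), KDM2B for CCND3 (0.40), RRM2 for CCNE1 (0.34) and CDT1 for CCNE2 (0.17). The widest of these gaps were those of CDKN2C and CCND3, and the points share the Control library.

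The libraries were not LLC cells alone by their markers, and in bulk RNA fewer cells of a type and less RNA per cell cannot be told apart. Over the 5 libraries the summed level ran from 188 to 283 scaled FPKM for 6 leukocyte markers, from 319 to 459 for 6 macrophage markers, from 64.6 to 233 for 5 neutrophil markers and from 0.320 to 2.37 for 3 B cell markers. It ran from 312 to 817 for 6 fibroblast markers, from 27.5 to 46.0 for 5 endothelial markers and from 44.2 to 114 for 4 adipocyte markers. As a fold between the lowest and highest library, the widest ranges were those of 7 skeletal muscle markers, from 12.7 to 233 with the highest sums in BMN and BMN/PAZA high dose, and of 5 epidermis markers, from 1.92 to 241 with the highest sum in BMN. Of defining markers, CD3D was at 0 in Control and BMN/PAZA low dose, CD3E, TRAC and LCK in BMN/PAZA high dose, and CD79A and CD79B in BMN, while CD79B alone was at 0 in BMN/PAZA high dose. RETNLG was at 0 in Control and BMN, CKM and TNNC2, and KRT5 and KRT1, in BMN/PAZA low dose, ADIPOQ in Control and BMN/PAZA low dose, and LEP in Control, BMN and BMN/PAZA high dose. The part of these cells in the values of the 10 genes was not tested.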

How the data were processed

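The authors deposited 5 tables of 2 libraries each, with FPKM values of genes, which are fragments per kilobase scaled to library size; the tables name no unit, and FPKM was read from the values. HISAT2, StringTie and GRCm38 are in the submitters' processing notes, with no versions. Members and lists were chosen with earlier results of these data known. Each column was scaled to a sum of 1000000 over 13979 shared symbols, and repeated symbols, 16 in each table with BMN/PAZA high dose, kept the row with the highest mean. Differences used log2(value + 1). The weight of 1 fragment was fitted, after the data were seen, on genes over 500 bases with a single GENCODE vM21 transcript. Exact 95% Poisson and Clopper-Pearson intervals followed from the rounded fragments. Named list genes were the called genes of at least 1 scaled FPKM with the lowest and highest mean difference from Control. Genes over 0.5% from the median ratio between tables, in any library, were off it, and in BMN 0 genes were. Similar transcripts were found with BLAST 2.17.0 at 95% identity over 200 bases. The fit of the fragment weight and the calls of higher or lower were tested on simulated data, which for the calls left out weakly expressed genes. Alternatives were a pseudocount of 0.1, a minimum of 1, median ratio scaling, sums without the 100 highest genes, other tables, and values as deposited. Sums without RN7SK and MT-RNR2 were added after the data were seen. Python 3.11.15, pandas 2.3.3, numpy 2.4.6, scipy 1.17.1 and matplotlib 3.10.9 were used.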

Additional observations from a re-analysis of the deposited data

How the results depend on the processing

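No paired analysis was possible because each group has 1 library. The counts of called members, 1 in PAZA against Control, 0 in the low and high dose against Control or BMN, 2 in the low dose against PAZA and 1 in the high against the low dose, depended on the settings. With a pseudocount of 0.1 they became 2 in PAZA against Control, 1 in the low dose against Control, 2 in the high dose against Control, 1 in the low dose against BMN, 1 in the high dose against BMN, 3 in the low dose against PAZA and 2 in the high against the low dose. Under that setting 5.91% to 11.95% of all genes were called higher and 6.49% to 14.7% lower, and CDKN2A or CDKN2B, at 2 fragments or fewer, are among the called members in 4 of the comparisons. With median ratio scaling they became 0 in PAZA against Control and 0 in the high against the low dose, and the latter also 0 without the 100 highest genes. Without RN7SK and MT-RNR2 in the sum, chosen after seeing the data, the low dose against PAZA gave 1. As deposited, PAZA against Control gave 0, and the high against the low dose gave 9, with CCNE1 at -1.60 and CCNE2 at -1.48, both reversed, since that table's low dose column stands above the same library elsewhere and the median of all genes moved by -1.44, with 74.1% of all genes called lower and 0.465% higher. Of 492 recomputed differences of members, 335 stayed within 0.1 on the log2 scale, 136 moved further, 5 lost and 14 gained a call and 2 reversed with a call under the setting. Counting uncalled members too, the direction of 10 of 64 ratios turned with median ratio scaling, of 9 without the 100 highest genes and of 3 without RN7SK and MT-RNR2. Depth limits CDKN2A and CDKN2B, at 2 fragments or fewer. CDKN2C, CCND2 and CCND3 have wide intervals on the shortest coding transcript, and their width depends on the transcript taken.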
